A study of Mus musculus with 9 samples.

Results

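The let-7 microRNAs are made from hairpins that Dicer cuts into 2 strands, a 5p arm and a 3p arm. In this family the 5p arm is known as the guide strand, which is loaded into Argonaute and represses mRNAs that pair with its seed, and let-7 is known for holding back growth genes in differentiated tissue such as the heart. The 3p arm is the passenger strand, mostly degraded after the strands separate. Its reads in a small RNA library depend on how much of a hairpin was processed and which strand was kept, but also on decay and capture. These were not told apart here. The 3p arms were chosen by name, as every row of the miRNA count table that starts with mmu-let-7 and ends with -3p. This gave 9 of 621 rows: mmu-let-7a-2-3p, mmu-let-7b-3p, mmu-let-7c-1-3p, mmu-let-7d-3p, mmu-let-7e-3p, mmu-let-7f-1-3p, mmu-let-7f-2-3p, mmu-let-7g-3p and mmu-let-7i-3p, written below without the species prefix. All 9 passed the filter on low counts, which kept 509 rows.

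MicroRNA was sequenced from left ventricle of male mice aged 6 months on a C57BL/6J background. There were 3 libraries each of CaNrf2-Low (TG-Low), of CaNrf2-High (TG-High) and of non-transgenic mice (NTG). By its name, CaNrf2 is a transgene for a form of Nrf2, the transcription factor that drives antioxidant and detoxifying genes. The 2 lines carry the names Low and High. What promoter drives the transgene, and whether a library holds 1 animal or a pool, was not stated in the labels. Nothing in them says that the libraries came from separate animals, so a p-value here reflects the spread among these libraries alone, and that spread may be technical. In bulk ventricle, fewer cells of a type and less RNA per cell cannot be told apart.

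The 9 mature sequences, from RefSeq on GRCm38.p6, all matched by name. They are shown because, unlike the 5p arms, they do not share 1 seed; capitals mark the seed, bases 2 to 8.
let-7i-3p: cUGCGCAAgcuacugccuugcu
let-7f-1-3p: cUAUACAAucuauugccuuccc
let-7b-3p: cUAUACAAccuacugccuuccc
let-7c-1-3p: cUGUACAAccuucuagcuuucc
let-7a-2-3p: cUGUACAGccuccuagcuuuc
let-7g-3p: aCUGUACAggccacugccuugc
let-7f-2-3p: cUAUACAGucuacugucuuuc
let-7d-3p: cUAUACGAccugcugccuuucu
let-7e-3p: cUAUACGGccuccuagcuuucc

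Only let-7b-3p and let-7f-1-3p shared a seed, so the 9 arms carried 8 seeds. The 8 let-7 5p sequences (let-7a to let-7g and let-7i) all carried the seed GAGGUAG. Of the 3p arms, 8 began with C, and let-7g-3p began with A. Over the 36 pairs of 3p arms, ungapped identity ranged from 50% (let-7e-3p with let-7i-3p) to 90.9% (let-7b-3p with let-7f-1-3p), with a median of 72.7%. The closest of these 9 arms differed at 2 bases, whereas let-7a-5p differed from let-7c-5p, let-7e-5p and let-7f-5p at 1 base each. This holds among the 9 arms only, since let-7a-1-3p and let-7c-2-3p have no row in the count table. They are identical to each other, with the seed UAUACAA, and outside the seed they match let-7f-2-3p over its length. let-7b-5p also differed from let-7c-5p at 1 base.

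Of the 9 arms, 5 come from hairpins whose 5p sequence has 1 genomic copy (let-7b, let-7d, let-7e, let-7g and let-7i). Only for these was the ratio of 3p to 5p reads of the hairpin tested. The hairpins of let-7i and let-7g carry the results on this ratio; capitals mark the 5p arm and then the 3p arm.
Mirlet7i: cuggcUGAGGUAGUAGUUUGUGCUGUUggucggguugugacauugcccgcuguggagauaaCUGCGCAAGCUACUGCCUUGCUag
Mirlet7g: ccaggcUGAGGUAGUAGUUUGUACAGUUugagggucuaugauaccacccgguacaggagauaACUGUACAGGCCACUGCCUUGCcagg

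In GRCm38 (GENCODE M21 for the genes), Mirlet7i lies at chr10:122985640-122985724 on the minus strand, in an exon of the transcribed pseudogene D630033A02Rik. Mirlet7g lies at chr9:106178840-106178927 on the plus strand, in an intron of the protein-coding gene Wdr82. Mirlet7d at chr13:48536012-48536114 and Mirlet7f-1 at chr13:48537829-48537917 lie 1714 bases apart on the minus strand, both in exons of the lincRNA 6720427I07Rik. Mirlet7c-1 at chr16:77599657-77599750 lies in an intron of Mir99ahg on the plus strand, 656 bases from Mir99a. Mirlet7f-2, in an intron of Huwe1 on chromosome X, is 785 bases from Mir98. Mirlet7b lies in an exon of Lncppara on chromosome 15, Mirlet7e in an intron of Spaca6 on chromosome 17, and Mirlet7a-2 in introns of 3110039I08Rik and Gm49317 on chromosome 9.

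Total counts ranged from 3620465 to 11695744, both in TG-High, with the fewest in TG-High replicate 2. The scarce arms let-7g-3p (12 reads) and let-7a-2-3p (6 reads) had their fewest reads in NTG replicate 0. The heart muscle markers miR-208a-3p (2930 CPM in TG-Low, 2500 CPM in TG-High and 2450 CPM in NTG) and miR-499-5p (17900 CPM in TG-Low, 11500 CPM in TG-High and 21600 CPM in NTG) were present in every library. CPM are read counts scaled to library size, with TMM factors. The other markers of that list were miR-208b-3p (205 CPM in TG-Low, 494 CPM in TG-High and 178 CPM in NTG), miR-1a-3p (132 CPM in TG-Low, 115 CPM in TG-High and 84.2 CPM in NTG) and miR-133a-3p (0.407 to 3.83 CPM). miR-1a-3p and miR-133a-3p are each made from more than 1 hairpin, and how reads matching several hairpins were counted was not stated, so their low rows cannot be read as the level of the miRNA. The 5 heart muscle markers summed to 19500 to 23200 CPM in TG-Low and 13100 to 16700 CPM in TG-High, against 22500 to 26500 CPM in NTG. The summed level of 4 erythroid markers was 1360 to 1850 CPM in TG-Low and 630 to 686 CPM in TG-High, against 1630 to 2490 CPM in NTG, and that of 5 leukocyte markers was 1300 to 1650 CPM in TG-Low and 1110 to 1160 CPM in TG-High, against 1620 to 1700 CPM in NTG. Erythroid miR-486a-5p averaged 176 CPM in TG-Low and 75.6 CPM in TG-High, against 92.7 CPM in NTG. The other erythroid markers had lower means in both lines. In TG-Low, TG-High and NTG, leukocyte miR-142a-3p (200, 212 and 159 CPM) and miR-223-3p (83.2, 97.1 and 72.5 CPM) had higher transgenic means. miR-150-5p (681, 372 and 784 CPM) and miR-155-5p (199, 138 and 309 CPM) had lower ones, and miR-142a-5p (326, 318 and 323 CPM) was near level. No marker of these 3 lists was at 0 in any library. Their part in the results below was not tested.

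The 3p arms spanned a wide range of abundance. All are 21 or 22 bases long, so no length term was used. Whether different sequences were captured equally was not measured, so levels of different arms compare reads and not molecules. let-7d-3p was the most abundant, with a mean of 538 ± 40.5 CPM in TG-Low, 601 ± 66.7 CPM in TG-High and 656 ± 48.9 CPM in NTG (SD, n = 3 each, as for all levels below). let-7i-3p came next, with TG-Low at 129.5 ± 10.1 CPM and TG-High at 127.9 ± 4.01 CPM, against 91.5 ± 6.57 CPM in NTG. In NTG, let-7f-2-3p (49.6 ± 2.93 CPM) and let-7b-3p (47.9 ± 4.91 CPM) did not differ beyond their spread, and let-7f-1-3p (29.5 ± 4.46 CPM) overlapped let-7e-3p (22.2 ± 5.09 CPM). let-7c-1-3p had 13.1 ± 1.03 CPM, let-7g-3p 2.74 ± 1.17 CPM and let-7a-2-3p 1.13 ± 0.358 CPM in NTG. In the transgenic libraries let-7f-1-3p stood in the same range as let-7b-3p, with 41.8 to 66.6 CPM for let-7f-1-3p and 41.6 to 52.1 CPM for let-7b-3p. let-7a-2-3p was the scarcest, with 6 to 13 reads a library.

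**Figure D1:**
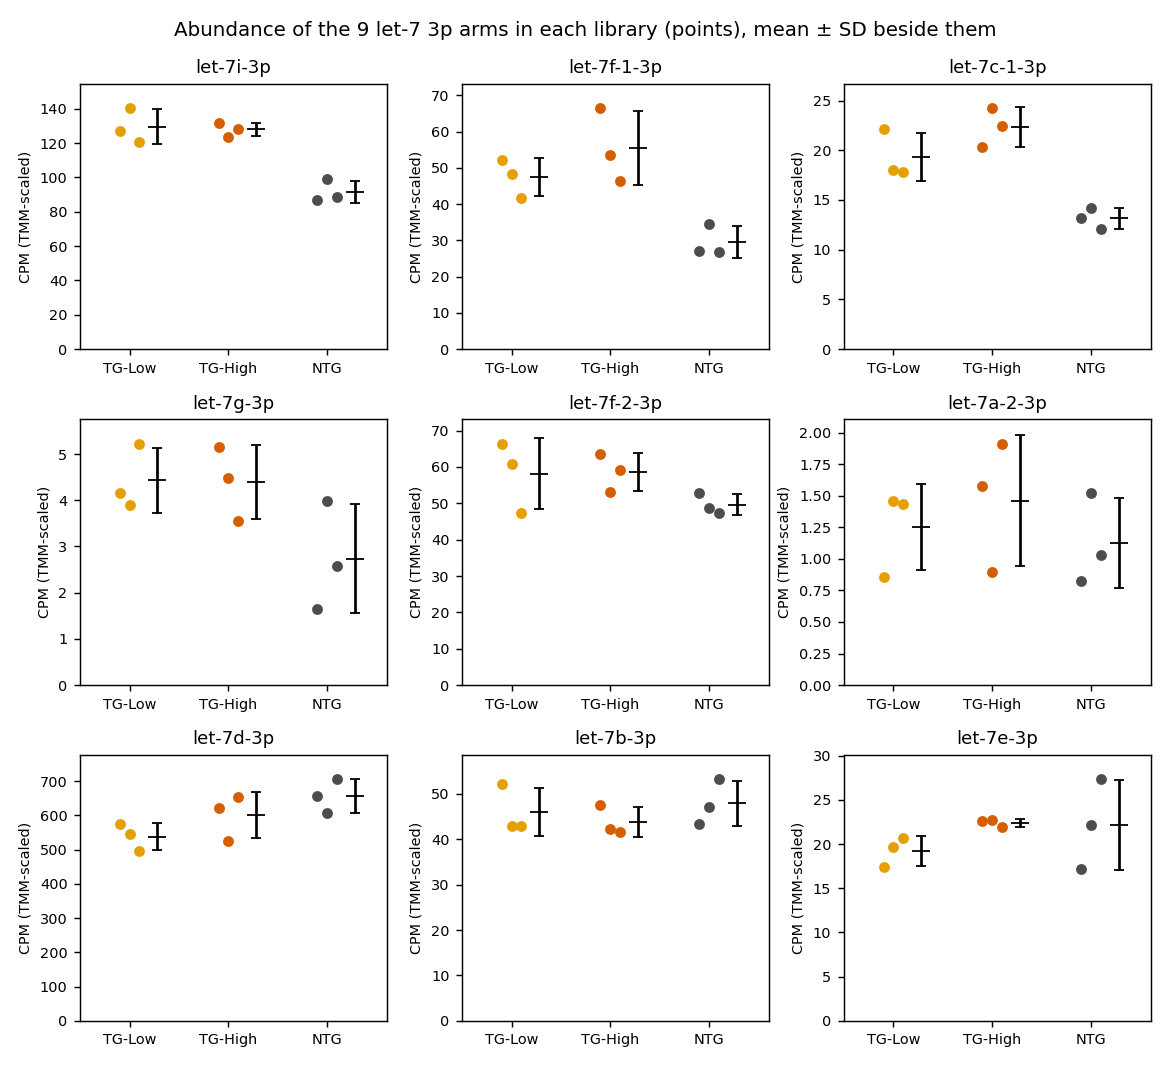
CPM (TMM-scaled, linear axes from 0) of the 9 let-7 3p arms, with 1 point per library and the mean ± SD of each group beside it (n = 3 each). For let-7i-3p, let-7f-1-3p and let-7c-1-3p the 6 transgenic libraries all lie above the 3 NTG libraries, and for the other 6 arms the 6 transgenic libraries as 1 set overlap NTG.

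Of the 9 arms, 3 rose in the transgenic lines together (TG, 6 libraries) against NTG and 0 fell, at an adjusted p under 0.05 (edgeR quasi-likelihood F test, Benjamini-Hochberg over 509 rows). Over all 509 rows, 8.64% were called, with 4.72% higher and 3.93% lower. These were let-7i-3p, let-7f-1-3p and let-7c-1-3p. The groups did not overlap for the same 3 of 9 arms, against 8.06% of all rows with every transgenic library above every NTG library. The median log2 fold change of the 9 arms was 0.24, against 0.01 over all rows tested. It was 0.04 over the less abundant arms of the hairpins used for arm ratios below, with let-7 left out. Of these 141 arms, 4 were called higher (2.84%) and 3 lower.

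let-7f-1-3p is the passenger arm of a hairpin in the same lincRNA gene as let-7d and let-7a-1. It had 52.2, 48.3 and 41.8 CPM in TG-Low replicates 0, 1 and 2 and 66.6, 53.6 and 46.5 CPM in TG-High replicates 0, 1 and 2, against 27.1, 34.6 and 26.7 CPM in NTG replicates 0, 1 and 2. All 6 transgenic libraries were above the highest NTG library. The fold change in TG against NTG was 1.75 (log2 0.80 ± 0.168 SE, edgeR adjusted p = 0.0158).

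let-7c-1-3p is the passenger arm of the let-7c copy that sits beside miR-99a. Its levels in replicates 0, 1 and 2 were 22.1, 18.04 and 17.8 CPM in TG-Low and 20.3, 24.3 and 22.4 CPM in TG-High, against 13.2, 14.2 and 12.1 CPM in NTG. The lowest transgenic library exceeded the highest NTG library. The fold change in TG against NTG was 1.58 (log2 0.66 ± 0.151 SE, edgeR adjusted p = 0.0193).

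let-7i-3p, from a hairpin with no let-7 neighbour, had 127, 140.5 and 121 CPM in TG-Low replicates 0, 1 and 2 and 132, 124 and 128 CPM in TG-High, against 86.9, 98.99 and 88.5 CPM in NTG. The transgenic libraries of both lines lay close together and above all 3 NTG libraries. The fold change in TG against NTG was 1.41 (log2 0.49 ± 0.113 SE, edgeR adjusted p = 0.0193).

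These calls depended on single libraries. Without NTG replicate 0 none of the 3 passed (edgeR adjusted p = 0.0772 for let-7i-3p, 0.0771 for let-7f-1-3p and 0.0772 for let-7c-1-3p), and without NTG replicate 2 none passed either (0.088, 0.0684 and 0.0938 in the same order). Without TG-High replicate 1, let-7i-3p and let-7c-1-3p had an edgeR adjusted p of 0.055 each, and let-7f-1-3p still passed. let-7g-3p passed without NTG replicate 1 (log2 1.04, edgeR adjusted p = 0.0455), and was at log2 0.44 without NTG replicate 0 (edgeR adjusted p = 0.315). The log2 fold changes of the 3 arms stayed between 0.45 and 0.54 for let-7i-3p, 0.72 and 0.92 for let-7f-1-3p and 0.59 and 0.71 for let-7c-1-3p when each library was left out in turn.

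The other 6 arms did not pass in TG against NTG. let-7g-3p had 34, 32 and 40 reads in TG-Low and 36, 55 and 13 reads in TG-High, against 12, 34 and 25 reads in NTG. In CPM these were 4.16, 3.90 and 5.23 in TG-Low and 5.15, 4.48 and 3.56 in TG-High, against 1.65, 3.98 and 2.59 in NTG, so NTG replicate 1 overlapped the transgenic range. Its log2 fold change was 0.69 ± 0.268 (edgeR adjusted p = 0.114). let-7f-2-3p ranged from 47.4 to 66.4 CPM in TG-Low and 53.2 to 63.7 CPM in TG-High, against 47.3 to 52.9 CPM in NTG, with a log2 fold change of 0.24 ± 0.136. let-7a-2-3p had a log2 fold change of 0.19 ± 0.350 on at most 13 reads a library. let-7d-3p (log2 -0.20 ± 0.118), let-7b-3p (log2 -0.09 ± 0.128) and let-7e-3p (log2 -0.10 ± 0.162) had estimates below 0. The edgeR adjusted p was 0.265 for let-7f-2-3p and let-7d-3p, 0.637 for let-7b-3p, 0.712 for let-7e-3p and 0.795 for let-7a-2-3p.

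In the authors' deposited table, which compares both lines with NTG, the same 3 of the 9 arms were past an adjusted p of 0.05, as were 83 of all 621 rows. That table gives log2 fold changes of 0.79 for let-7f-1-3p, 0.66 for let-7c-1-3p and 0.48 for let-7i-3p, with adjusted p of 0.000259, 0.00268 and 9.75e-05.

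Each line was then set against NTG on its own, in 1 model of all 3 groups, so both comparisons share the 3 NTG libraries. In TG-High, 3 of 9 arms rose and 0 fell, where 18.3% of all rows were called, 8.84% as higher and 9.43% as lower. let-7f-1-3p was 1.89-fold higher (log2 0.92 ± 0.182, edgeR adjusted p = 0.00668), let-7c-1-3p 1.70-fold higher (log2 0.77 ± 0.165, edgeR adjusted p = 0.0102) and let-7i-3p 1.40-fold higher (log2 0.48 ± 0.130, edgeR adjusted p = 0.0283). let-7f-1-3p passed with each of the 9 libraries left out in turn, with its edgeR adjusted p at most 0.0323. let-7i-3p did not pass without TG-High replicate 0 (edgeR adjusted p = 0.0802), TG-High replicate 1 (0.0885), NTG replicate 0 (0.0853) or NTG replicate 2 (0.0727), and let-7c-1-3p did not pass without TG-High replicate 1 (0.0601). TG-High lay above NTG without overlap for 4 of the 9 arms, these 3 and let-7f-2-3p, as for 20% of all rows.

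In TG-Low, 0 of 9 arms passed with edgeR (1.57% of all rows called, 1.38% as higher and 0.196% as lower). An unadjusted p under 0.05 was found for 3 of the 9 arms, against 17.3% of all rows. DESeq2 called 2 of the 9, let-7i-3p and let-7f-1-3p, and 4.52% of all rows. The estimates were log2 0.69 ± 0.181 for let-7f-1-3p (edgeR adjusted p = 0.108), 0.56 ± 0.165 for let-7c-1-3p (edgeR adjusted p = 0.117) and 0.50 ± 0.130 for let-7i-3p (edgeR adjusted p = 0.102). For these 3 arms the TG-Low libraries did not overlap NTG, as for 11.4% of all rows. let-7d-3p did not overlap NTG in the other direction, as for 10.4% of all rows, with 575, 545 and 495 CPM in TG-Low, against 656, 607 and 705 CPM in NTG (log2 -0.29 ± 0.130, edgeR adjusted p = 0.285).

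The lines were also compared directly. In TG-High against TG-Low, 0 of 9 arms passed with edgeR (1.38% of all rows called). None had an unadjusted p under 0.05, against 8.06% of all rows, and DESeq2 called 0, against 2.36% of all rows. Log2 differences of TG-High against TG-Low ran from -0.07 (let-7b-3p) to 0.23 (let-7f-1-3p), with standard errors from 0.130 to 0.437. The difference was 0.23 ± 0.180 for let-7f-1-3p, 0.21 ± 0.163 for let-7c-1-3p and -0.02 ± 0.130 for let-7i-3p. A difference between the lines was not detectable at this spread for any of the 3 arms called in TG against NTG.

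None of the 5p rows was called higher. Of 9 rows (8 let-7 5p rows and miR-98-5p), 0 rose and 2 fell in TG against NTG, where 4.72% of all rows were called higher and 3.93% lower. Their median log2 fold change was -0.23, and 5 of the 9 rows lay wholly below NTG, as did 9.23% of all rows. DESeq2 called 3 of the 9, against 14.1% of all rows. In the authors' deposited table let-7a-5p, let-7c-5p, let-7d-5p and let-7g-5p were past an adjusted p of 0.05, as were 83 of all 621 rows. let-7e-5p (log2 0.16 ± 0.120) and miR-98-5p (log2 0.15 ± 0.154) had estimates above 0. let-7j, whose name gives no arm, is not among these 9 rows. It fell in TG against NTG (log2 -0.47 ± 0.107, edgeR adjusted p = 0.0193). By line, let-7j was called lower in TG-High against NTG (edgeR adjusted p = 0.0207) and not in TG-Low (0.114). let-7g-5p averaged 15100 ± 1050 CPM in TG-Low and 13900 ± 1280 CPM in TG-High, against 19380 ± 1370 CPM in NTG (log2 -0.42 ± 0.098, edgeR adjusted p = 0.0205). let-7d-5p averaged 3417 ± 324 CPM in TG-Low and 3041 ± 64.1 CPM in TG-High, against 4280 ± 14.9 CPM in NTG (log2 -0.41 ± 0.099, edgeR adjusted p = 0.0238). let-7i-5p, the partner of let-7i-3p, averaged 11650 ± 1190 CPM in TG-Low and 11520 ± 1620 CPM in TG-High, against 12250 ± 605 CPM in NTG (log2 -0.08 ± 0.107, edgeR adjusted p = 0.637). In TG-High against NTG, 3 of the 9 rows fell, let-7d-5p, let-7g-5p and let-7c-5p, where 9.43% of all rows did. The counts over 9 rows include let-7a-5p, let-7c-5p and let-7f-5p, whose sequences lie in several hairpins. As said below, these rows cannot be read as the level of the strand. In TG-Low against NTG none passed with edgeR, 3 of the 9 had an unadjusted p under 0.05, against 17.3% of all rows, and DESeq2 called 0, against 4.52% of all rows.

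**Figure D2:**
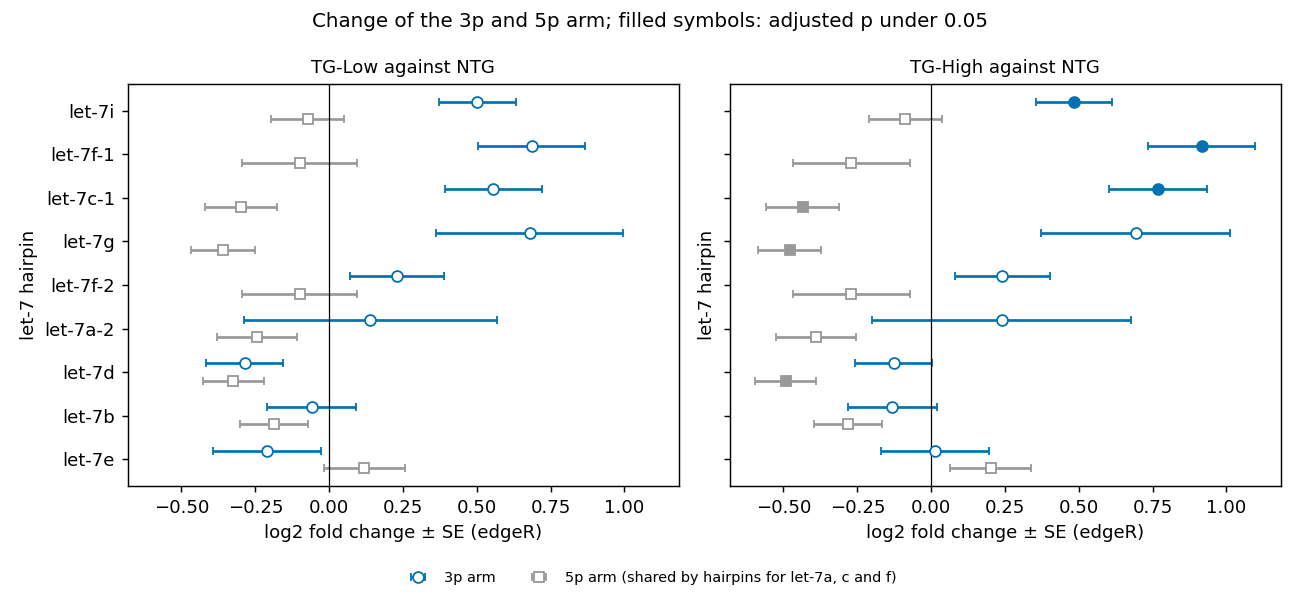
Log2 fold change ± SE from edgeR of each 3p arm (circles) and of the 5p row of its hairpin (squares), in TG-Low against NTG (left) and TG-High against NTG (right). The 5p rows of let-7a, let-7c and let-7f are shared by several hairpins. Filled symbols have an adjusted p under 0.05; in TG-High the filled circles are let-7i, let-7f-1 and let-7c-1, at 0.48 to 0.92, and the filled squares are let-7c, let-7g and let-7d, at -0.43 to -0.49.

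The ratio of 3p to 5p reads compares strands of 1 hairpin within 1 library, so no scaling between libraries enters it. This takes reads as assigned to the right 5p row, which was not tested. let-7b-5p differs from let-7c-5p, and let-7e-5p from let-7a-5p, at 1 base each. In all 5 single-copy hairpins the 5p arm was the more abundant in each of the 9 libraries. In NTG there were 153 ± 11 reads of let-7d-3p per 1000 reads of let-7d-5p, 63.8 ± 14.1 for let-7e, 14.8 ± 1.83 for let-7b, 7.49 ± 0.821 for let-7i and 0.144 ± 0.0692 for let-7g. The let-7d ratio was 1060-fold that of let-7g. Ratios of different hairpins compare reads and not molecules, since capture of each sequence was not measured. The ratio was taken over 146 hairpins with both arms past the filter and no copy number in their name. For 123 of them the 5p sequence was found in 1 hairpin only, and for the other 23, miR-133a among them, the copy number was not checked by sequence. Some hairpins mirrored each other in TG against NTG, so the 146 are not all independent. Such pairs included miR-126a (log2 0.248) with miR-126b (log2 -0.247), and miR-338 (log2 0.430) with miR-3065 (log2 -0.429). Others were miR-486a (log2 -0.1925) with miR-486b (log2 0.1924), and miR-136 (log2 -0.096) with miR-3071 (log2 0.092). The pairs of miR-338 and of miR-136 are among the 123. More 5p than 3p reads in NTG were found for 86 of the 146 (median ratio of those 69.8 per 1000) and for 75 of the 123 (median ratio 111 per 1000). let-7g had the lowest mean ratio of the 146, though within its spread of the next, miR-21a (0.1475 per 1000). From the bottom, let-7i ranked 15, let-7b 24, let-7e 39 and let-7d 47.

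**Figure D3:**
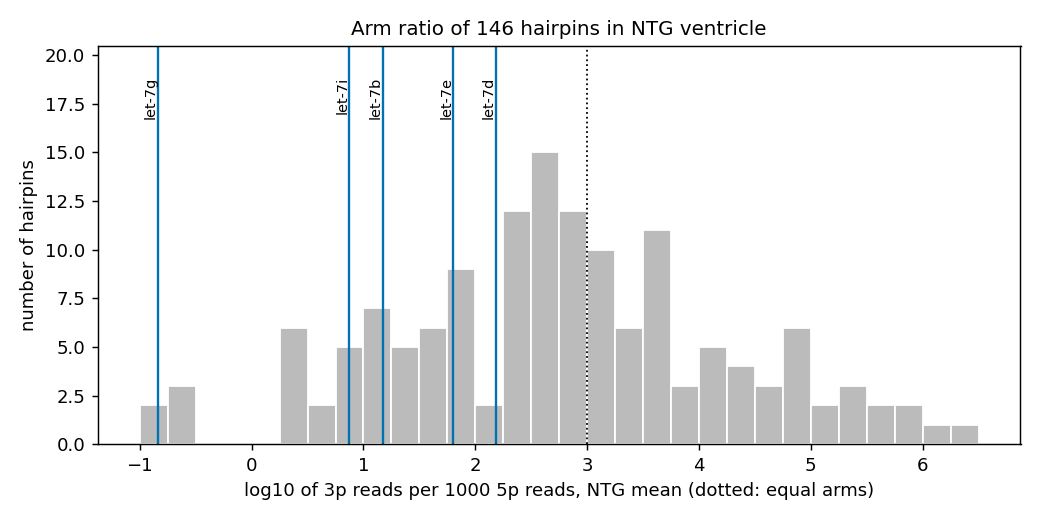
Histogram of the mean NTG ratio of 3p to 5p reads over 146 hairpins (horizontal axis, log10 of 3p reads per 1000 5p reads; vertical axis, number of hairpins), with vertical lines at the 5 let-7 hairpins and a dotted line where both arms are equal. All 5 let-7 hairpins lie left of the dotted line, and let-7g, at 0.144 per 1000, has the lowest mean of the 146.

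Against NTG, the ratio rose in 2 of the 5 hairpins, let-7i and let-7g, and fell in 0, in TG (limma on log2 ratios, Benjamini-Hochberg over 146 hairpins; 10.3% of hairpins called, 4.11% with a higher 3p share). For let-7i there were 10.84, 10.98 and 11.59 reads of 3p per 1000 of 5p in TG-Low replicates 0, 1 and 2 and 9.85, 11.4 and 12.4 in TG-High, against 6.72, 8.35 and 7.41 in NTG. All 6 transgenic libraries were higher than the 3 NTG libraries, by 1.49-fold on average (log2 0.58 ± 0.114, limma adjusted p = 0.007). This call held with each library left out in turn (limma adjusted p at most 0.034). It came with a called rise of let-7i-3p and a log2 change of -0.08 in let-7i-5p that did not pass.

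For let-7g there were 0.274, 0.242 and 0.373 reads of 3p per 1000 of 5p in TG-Low replicates 0, 1 and 2 and 0.336, 0.331 and 0.277 in TG-High, against 0.0785, 0.216 and 0.138 in NTG. The groups did not overlap, as for 4.79% of the 146 hairpins in that direction, but the lowest transgenic library (0.242) was close to NTG replicate 1 (0.216). The difference was 2.26-fold (log2 1.176 ± 0.278, limma adjusted p = 0.0165). It did not pass without NTG replicate 0 (log2 0.81, limma adjusted p = 0.121) or NTG replicate 2 (log2 1.198, limma adjusted p = 0.0513). Here the 5p arm fell, and the rise of the 3p arm, at 12 to 55 reads a library, did not pass.

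An exact permutation test over the libraries gave p = 0.0238 for both let-7i and let-7g in TG against NTG. It was made two-sided by doubling the smaller tail, and 0.0238 is the smallest p that this rule allows with 6 against 3. Adjusted over the 5 hairpins the exact p was 0.0595. With 3 against 3 the exact test cannot go below 0.1.

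The ratios of let-7d, let-7b and let-7e did not pass in TG against NTG. let-7d had 186, 146 and 145 reads of 3p per 1000 of 5p in TG-Low and 205, 177 and 211 in TG-High, against 153, 142 and 164 in NTG. TG-High lay above NTG throughout, as for 11.6% of the 146 hairpins, whereas TG-Low overlapped it. The log2 difference was 0.20 ± 0.131 (limma adjusted p = 0.362). The let-7b ratio ran from 14.9 to 17.0 in TG-Low and 16.0 to 17.3 in TG-High, against 13.5 to 16.9 in NTG (log2 0.14 ± 0.121, limma adjusted p = 0.452). The let-7e ratio ran from 44.5 to 63.5 in TG-Low and 52.4 to 60.0 in TG-High, against 50.9 to 78.9 in NTG (log2 -0.23 ± 0.168, limma adjusted p = 0.4).

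By line, let-7i (log2 0.58 ± 0.137, limma adjusted p = 0.0254) and let-7g (log2 1.233 ± 0.330, limma adjusted p = 0.0377) passed in TG-High against NTG, where 6.85% of hairpins were called and 3.42% with a higher 3p share, and let-7d did not (log2 0.36 ± 0.130, limma adjusted p = 0.0847). With a prior variance that does not follow abundance, neither passed in TG-High (limma adjusted p = 0.0755 each). The let-7i call was lost without TG-High replicate 1 (limma adjusted p = 0.0873), TG-High replicate 2 (0.0768), NTG replicate 0 (0.0733) or NTG replicate 2 (0.0735). The let-7g call was lost without any of TG-High replicates 0 (0.104), 1 (0.0873) and 2 (0.0514), NTG replicate 0 (0.125) or NTG replicate 2 (0.0735).

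In TG-Low against NTG 0 of the 146 hairpins passed (0%) with limma, with 25 (17.1%) at an unadjusted p under 0.05. The TG-Low estimates were log2 0.58 ± 0.137 for let-7i (limma adjusted p = 0.066) and 1.119 ± 0.330 for let-7g (limma adjusted p = 0.0817). Over the 123 hairpins checked by sequence let-7i passed (limma adjusted p = 0.0281) and let-7g did not (0.0549). Without NTG replicate 1 both passed (limma adjusted p = 0.0438 each, log2 0.66 for let-7i and 1.46 for let-7g). In TG-High against TG-Low 0 of the 146 (0%) passed either, with 5 (3.42%) at an unadjusted p under 0.05. There the log2 difference was 0.00 ± 0.137 for let-7i, 0.11 ± 0.330 for let-7g and 0.32 ± 0.130 for let-7d (limma adjusted p = 0.859).

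**Figure D4:**
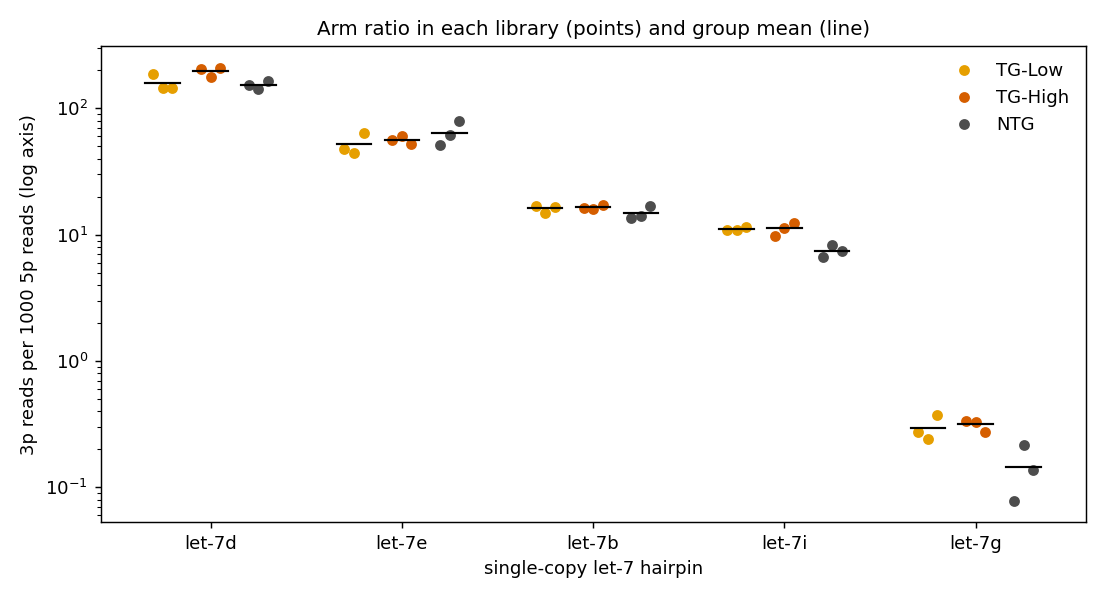
Reads of the 3p arm per 1000 reads of the 5p arm (log axis) in each library of the 5 single-copy let-7 hairpins, with the group mean as a line. For let-7i the transgenic libraries lie between 9.85 and 12.4, above NTG at 6.72 to 8.35, and for let-7g between 0.242 and 0.373, above NTG at 0.0785 to 0.216.

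For let-7a-2, let-7c-1, let-7f-1 and let-7f-2 the 5p sequence lies in more than 1 hairpin, and no arm ratio of the hairpin was tested. Their 5p rows were low: let-7a-5p averaged 63.8 CPM, let-7c-5p 156.9 CPM and let-7f-5p 56.0 CPM over the 9 libraries, against 16130 CPM for let-7g-5p. Reads of let-7f-1-3p and let-7f-2-3p together were 1.24 to 2.40 times those of let-7f-5p. Taken by these rows, the 3p arms of let-7f would not be the minor strand. How reads matching several hairpins were counted was not stated, so the level of these 5p rows cannot be read as the level of the strand.

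Arms of neighbouring hairpins, or of 2 copies of a hairpin, were set against each other in 4 pairs chosen after their values were seen. Reads of let-7f-1-3p per read of let-7d-3p were 0.071 to 0.107 in TG, against 0.0379 to 0.057 in NTG. This is a 2.01-fold difference (log2 1.01). Since let-7f-1-3p and let-7c-1-3p were already called higher when the pairs were chosen, these values are a description, with no test. Reads of let-7f-1-3p per read of let-7f-2-3p, the passenger arm of the other let-7f copy, were 0.786 to 1.04 in TG, against 0.513 to 0.712 in NTG (1.49-fold). Reads of let-7c-1-3p per read of miR-99a-3p were 1.53 to 2.28 in TG, against 1.08 to 1.63 in NTG (1.40-fold). Per read of miR-99a-5p the difference was 1.36-fold.

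The hairpins that share clusters with let-7, miR-99a, miR-99b, miR-100, miR-125a and miR-125b, had 11 tested rows. None passed in TG against NTG with edgeR, 1 had an unadjusted p under 0.05, against 30.8% of all rows (miR-125b-1-3p, log2 0.52 ± 0.210, edgeR adjusted p = 0.123), and DESeq2 called 0, against 14.1% of all rows. Their median log2 fold change was 0.17. miR-98-3p, the passenger arm of the hairpin beside let-7f-2, averaged 4.86 ± 0.666 CPM in TG-Low and 7.25 ± 1.77 CPM in TG-High, against 4.54 ± 2.58 CPM in NTG (log2 0.42 ± 0.339, edgeR adjusted p = 0.434 in TG against NTG).

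The rows most like each arm were ranked by Pearson's r of log2 CPM over the 9 libraries, as a description; the values share library, depth and group. let-7i-3p was closest to miR-22-5p (r = 0.973), miR-671-3p (0.962) and miR-22-3p (0.957). let-7f-1-3p was closest to miR-455-5p (0.977), miR-22-5p (0.944) and miR-193b-3p (0.935), and let-7c-1-3p to miR-27b-5p (0.939), miR-671-5p (0.923) and miR-744-5p (0.915). The first row was miR-190a-3p for let-7g-3p (0.951), miR-127-5p for let-7f-2-3p (0.917), miR-181b-2-3p for let-7b-3p (0.871) and miR-497a-5p for let-7e-3p (0.855). let-7a-2-3p (miR-7688-5p, 0.783) and let-7d-3p (miR-450a-1-3p, 0.750) had the lowest first values. Among the 9 arms themselves, r was 0.916 between let-7i-3p and let-7f-1-3p, 0.858 between let-7i-3p and let-7c-1-3p, and -0.584 between let-7i-3p and let-7d-3p.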

How the data were processed

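The 9 libraries were small RNA from left ventricle, 3 per group by the genotype label. Per the file headers, the deposited table holds a raw read count per miRNA and library for 621 rows. The authors also deposited a mean normalized signal, a log2 fold change with its standard error, a Wald score, a p-value and an adjusted p-value, for both lines against NTG. Per the submitters' processing notes, the build was mm10 (GRCm38) and the tools included DESeq2 1.18.1, Novoalign, SAMtools, Trim Galore 0.4.0 and bcl2fastq 1.8.4. How reads were counted, with which annotation and strand, and what was done with reads of several matches was not given in the sources used here. Per the labels, a TruSeq RNA kit was used.

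Rows with enough reads by filterByExpr (minimum count 10) were fitted in R 4.3.3 with edgeR 4.0.16 (quasi-likelihood, TMM), 509 rows in all, with Benjamini-Hochberg adjustment and a threshold of 0.05. TG against NTG used 2 groups and the other comparisons 1 model of 3 groups. Log2 CPM used a prior count of 2. Arm ratios were log2 of (3p count + 0.5)/(5p count + 0.5), fitted with limma 3.58.1 with a prior variance trended on the less abundant arm, over 146 hairpins without a copy number in their name, 123 of them with a RefSeq 5p sequence found in 1 hairpin and 23 without a 5p sequence to check. Alternatives were DESeq2 1.42.0, its size factors, no filter, a replicate block, leaving out the 5 most abundant rows or each library, a pseudocount of 0, a mean count of 50 in both arms, the 123 hairpins alone and an untrended prior. The untrended prior, the 123 hairpins alone and the 4 pairs of rows were chosen after seeing the data. The fits were run on simulated data with the same spread for every row. There the arm ratio fit was given only a change larger than those reported for let-7. How the fits perform at the spread and changes seen here was therefore not tested. Members and lists were chosen with earlier results of these data known. The miRNAs named are the 9 arms, their 5p rows, let-7j, rows of the same clusters, miR-98, and the 3 rows most correlated with each arm. Cell type markers and some other hairpins of the arm ratio test are also named.

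Counts of libraries of 1 group differed beyond sampling noise (chi-square over its degrees of freedom 52.6 to 512), so none was treated as a repeat of another; this does not show that they are separate animals. Positions and figures used Python 3.11.15 and matplotlib 3.10.9.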

Additional observations from a re-analysis of the deposited data

How the results depend on the processing

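No result changed direction while called, and the 3 called arms kept their calls in TG against NTG under every alternative that kept all 9 libraries. DESeq2 called 72 rows in place of 44 in TG against NTG, 23 in place of 8 in TG-Low against NTG (2 of the 9 arms in place of 0) and 12 in place of 7 in TG-High against TG-Low. Without a filter on low counts, 21 rows were called in TG-Low against NTG and 25 in TG-High against TG-Low. With a mean count of 50 in both arms, let-7g left the arm ratio test, so 1 let-7 hairpin was called in TG and 1 in TG-High, and 20 hairpins in place of 10 were called in TG-High. Without a variance trend, 4 hairpins were called in TG-High against NTG, 0 of them let-7. Over the 123 hairpins whose 5p sequence was checked, 3 were called in TG-Low against NTG (1 of them let-7, let-7i) and 18 in TG-High against NTG. The causes were not tested, other than that of let-7g.

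Replicate numbers are shared by the groups, but the correlations of deviations between same-numbered libraries (-0.174 to 0.235) were not all above 0.1 for any 2 groups, so the block is only an alternative. For TG-Low and NTG they were 0.235, 0.0636 and 0.13, and each library correlated best with its own number, which is a hint from the data and not from the design. With it, 35 rows and 3 of the 9 arms were called in TG against NTG, and arm ratio calls came to 7 in TG-Low against NTG (1 of them let-7, let-7i) and 30 in TG-High against NTG, where let-7d also passed (limma adjusted p = 0.0264).

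Leaving out each library in turn gave 14 to 108 rows called and 0 to 4 of the 9 arms in TG against NTG, 0 to 18 rows in TG-Low against NTG, 37 to 114 rows and 1 to 3 arms in TG-High against NTG, and 0 to 10 rows in TG-High against TG-Low. Arm ratio calls ran from 4 to 17 (1 to 2 let-7) in TG, 0 to 7 (0 to 2 let-7) in TG-Low and 2 to 18 (0 to 2 let-7) in TG-High. In TG against NTG, 14 rows remained without NTG replicate 0, 16 without NTG replicate 2, 22 without TG-High replicate 1 and 26 without TG-High replicate 0, and 108 were called without TG-Low replicate 2. Depth limits let-7a-2-3p and let-7g-3p, with at most 13 and 55 reads a library.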
